A study of Mus musculus with 15 samples.

Results

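The ubiquitin-specific proteases (USP) are the largest family of deubiquitinases, cysteine proteases that remove ubiquitin from proteins or take ubiquitin chains apart. Members were taken as the protein-coding mouse genes whose symbol is Usp, a number and, where present, trailing lower-case letters, after the Ensembl identifiers in the count tables had been matched to symbols. This gave 56 members among 21929 protein-coding genes and 53700 genes in all. Of these, 5 lie on the X chromosome and 9 on chromosome 7. The rule also takes Usp6nl, a RabGAP that shares the name but is not a protease.

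Polyadenylated RNA came from germinal vesicle (GV) oocytes of the mouse, the fully grown oocytes arrested before the first meiotic division. Each library held 15 oocytes. On an FVB/N background, Padi6 heterozygotes (het, Padi6 +/-, 3 replicates) were compared with knockouts (KO, Padi6 -/-, 3 replicates). On a C57BL/6J background, Tle6 heterozygotes (Tle6 +/-, 2 biological replicates) were compared with knockouts (Tle6 -/-, 4 biological replicates). No wild-type oocytes are among these groups, and all controls are heterozygous for the targeted gene; the library names in the titles say WT where the genotype says heterozygote. The sources used here give neither the age of the animals nor whether oocytes of several animals were pooled. PADI6 belongs to the peptidylarginine deiminases and TLE6 to the subcortical maternal complex, and the cytoplasmic lattices of the oocyte need both proteins.

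The fully grown oocyte transcribes little and lives on stored messenger RNA. Ubiquitin removal is known to matter there for protein storage, for the cell cycle arrest and for chromatin. USP enzymes differ in what they bind: some recycle free chains, some act on histones, some on receptors and endosomes, and several work only with a WD-repeat partner.

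The feature that members share is the Cys box, the stretch of the catalytic domain that carries the active-site cysteine. In the longest coding sequence of each gene, a Cys-box motif was found in 53 of 56 members. It was not found in Usp39, a splicing factor of the family that lacks the catalytic residues, in Usp6nl, or in the longest annotated form of Usp21. The coding sequence around it is shown for the members whose values differ most in the results below and for their closest relatives, from GENCODE M21 transcripts, 5′ to 3′, with the codon of the active-site cysteine in capitals.
Usp27x: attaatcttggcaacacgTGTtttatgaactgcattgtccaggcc
Usp22: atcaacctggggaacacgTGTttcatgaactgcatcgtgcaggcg
Usp51: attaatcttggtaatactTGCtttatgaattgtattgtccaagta
Usp13: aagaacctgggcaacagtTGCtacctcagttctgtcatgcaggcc
Usp5: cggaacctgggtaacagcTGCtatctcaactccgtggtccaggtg
Usp25: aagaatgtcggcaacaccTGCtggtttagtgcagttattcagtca
Usp28: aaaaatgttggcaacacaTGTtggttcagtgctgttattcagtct
Usp3: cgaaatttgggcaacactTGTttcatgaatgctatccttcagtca
Usp36: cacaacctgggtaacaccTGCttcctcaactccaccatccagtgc
Usp37: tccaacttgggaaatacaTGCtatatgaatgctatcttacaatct
Usp11: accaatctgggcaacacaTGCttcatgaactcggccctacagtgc
Usp22, Usp27x and Usp51 encode alternative catalytic subunits of the same histone deubiquitinase module, and their coding sequences were 78.0% (Usp22 and Usp27x), 75.6% (Usp27x and Usp51) and 69.8% (Usp22 and Usp51) identical. Usp5 and Usp13 were 69.7% identical and Usp25 and Usp28 65.7%. None of the 50-base words of the Usp27x transcripts occurs in the annotated transcripts of another gene. Sequence outside annotated transcripts was not searched.

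The tandem copies related to Usp17 on chromosome 7 are different in this respect. They are small deubiquitinase genes of the mouse, and their coding sequences were 90.7 to 98.4% identical. The stretch of 150 bases around the cysteine is shown for the copy whose counts differed in the Padi6 line, Usp17le, and for Usp17la, Usp17lb and Usp17lc, with bases that differ from Usp17le in capitals.
Usp17le: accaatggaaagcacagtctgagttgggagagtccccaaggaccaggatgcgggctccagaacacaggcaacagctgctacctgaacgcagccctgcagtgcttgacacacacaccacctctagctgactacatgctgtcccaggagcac
Usp17la: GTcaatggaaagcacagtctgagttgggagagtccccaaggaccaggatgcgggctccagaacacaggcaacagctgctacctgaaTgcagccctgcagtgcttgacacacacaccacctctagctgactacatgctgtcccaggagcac
Usp17lb: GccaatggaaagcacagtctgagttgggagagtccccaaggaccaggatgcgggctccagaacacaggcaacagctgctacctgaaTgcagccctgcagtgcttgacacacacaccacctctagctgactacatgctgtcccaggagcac
Usp17lc: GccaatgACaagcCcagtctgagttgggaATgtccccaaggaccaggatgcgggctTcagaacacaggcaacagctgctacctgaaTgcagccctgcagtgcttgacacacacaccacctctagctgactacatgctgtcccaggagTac
Usp17la differs from Usp17le at 3 of these bases, Usp17lb at 2 and Usp17lc at 9. Over whole transcripts, 29.78% of the 50-base words of Usp17le occur in another gene, against 51.08% for Usp17ld. Reads that fit several places were set apart by the counting, so the level of each copy is uncertain. Beyond these copies, over 5% of the words were shared with another gene for Usp49 (49.27%, with a read-through gene), Usp1 (21.38%), Usp50 (10.58%) and Usp9x (6.08%). Exons overlap a gene on the other strand over 26.0% of their length for Usp14, 24.4% for Usp33, 20.5% for Usp38, 12.8% for Usp43 and 11.6% for Usp34, and without the strand setting these counts may include reads of the neighbour.

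Promoter windows of 300 bases (250 before the start and 50 after it, RefSeq, GRCm38.p6) were at hand for 43 members, with 44 windows. The median window of a member held 25 CpG, against 7 over all 32841 windows. GGGCGG, the core of a GC box, was found on either strand in 63.6% of the member windows and in 35.7% of all windows, TATAAA in 11.4% and 13.6%, and CCAAT in 31.8% and 37.4%. A pair of windows is printed to show the range within the family, with GGGCGG and TATAAA of either strand in capitals. The first is Usp3 (chr9:66593066-66593365, minus strand), the member with the largest increase of Tle6 het over Padi6 het (log2 difference 1.96), and the second Usp17lb (chr7:104842534-104842833, minus strand), a tandem copy and the member with the largest decrease there (-2.42).
Usp3: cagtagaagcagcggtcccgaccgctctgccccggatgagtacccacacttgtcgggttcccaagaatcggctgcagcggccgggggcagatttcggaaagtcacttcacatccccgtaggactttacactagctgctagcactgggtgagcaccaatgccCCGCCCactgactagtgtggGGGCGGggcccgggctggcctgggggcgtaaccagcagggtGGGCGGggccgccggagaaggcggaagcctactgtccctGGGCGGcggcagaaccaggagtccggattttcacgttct
Usp17lb: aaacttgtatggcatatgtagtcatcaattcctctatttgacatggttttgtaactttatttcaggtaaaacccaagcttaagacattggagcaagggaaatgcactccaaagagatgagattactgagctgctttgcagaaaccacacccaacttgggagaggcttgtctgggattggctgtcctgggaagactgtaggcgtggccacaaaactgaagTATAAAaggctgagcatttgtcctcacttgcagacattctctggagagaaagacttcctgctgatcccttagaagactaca
The Usp3 window held 22 CpG and 4 GC-box matches. The windows of Usp17la, Usp17lb, Usp17lc and Usp17ld held 0 or 1 CpG and no GC-box match, and TATAAA was present in those of Usp17lb, Usp17lc and Usp17ld. Usp17le and Usp22 had no entry in the table. A match is a description of these letters only.

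Gene counts ranged from 30100177 to 74947533 per library. The targeted genes fit their labels: Padi6 was at 1750, 1590 and 1670 counts-per-million (CPM) in Padi6 het and at 24.8, 23.5 and 18.7 in Padi6 KO, and Tle6 at 457 and 429 in Tle6 het and at 91.4, 76.4, 61.1 and 97.0 in Tle6 KO. Oocyte markers summed to 20200 to 22900 CPM over all replicates, and all 12 of 12 were present. Granulosa and cumulus markers summed to 107 to 124 CPM in Padi6 het, 108 to 119 in Padi6 KO, 103 to 136 in Tle6 het and 110 to 133 in Tle6 KO, mostly Nr5a2 and Cyp19a1, with Amh and Foxl2 under 1 CPM in every group mean. Of the 15 tested in the Padi6 line, Has2 alone passed the test (log2 fold change 2.19), and none did in the Tle6 line. Other granulosa markers had lower values in Padi6 KO without passing: Cyp11a1 went from a mean of 11.5 CPM in het to 3.26 in KO (log2 fold change -1.81), and those under 2 CPM had -2.77 (Amhr2), -2.75 (Inha), -2.13 (Fshr) and -1.68 (Fst). Theca and stroma markers summed to 2.48 to 6.88 CPM, and blood and immune markers to 20.1 to 34.5 CPM, nearly all Pecam1; Insl3, Hbb-bs and Hbb-bt were at 0 throughout. The part of other cells in the results was not tested beyond these values.

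Technical libraries A and B exist for Tle6 het replicates 1 and 2 and for Tle6 KO replicate 4, and their counts were added. In Tle6 het replicate 2 these libraries stood apart from each other. Of 49 members at a mean of 1 CPM or more, 17 differed by over 2-fold between A and B, 11 higher in A and 6 higher in B, and so did 35.97% of all genes at that level. No member did so in het replicate 1 (0.1% of genes) or KO replicate 4 (0.06%). Among these members the largest difference was that of Usp50, at 2.21 CPM in library A and 0.29 in library B. Usp25 was at 1.25 in A and 7.35 in B, Usp10 at 152 and 49.1, and Usp4 at 177 and 429. Values without library B are therefore given below beside the members of the Tle6 line that it moves most. That choice does not mark library B as the faulty one. For Usp25, library A was nearer to het replicate 1, at 1.85 and 1.66. For Usp28, library B (1070) was nearer than library A (593) to the 1200 and 1250 of het replicate 1. Which library stands for the replicate was not tested. Oocyte markers summed to 23700 CPM in library A and 13900 in library B.

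**Figure D1:**
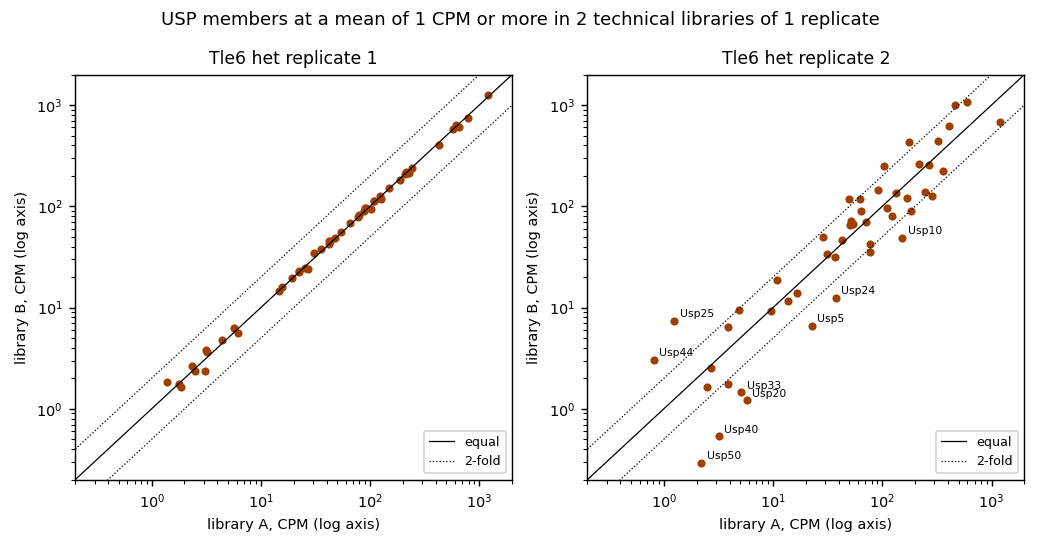
CPM (log axes) of the 49 USP members at a mean of 1 CPM or more in technical libraries A (x axis) and B (y axis) of Tle6 het replicates 1 and 2, with lines of equal value and of 2-fold difference. In replicate 1 all points lie between the 2-fold lines, and in replicate 2, 17 points lie outside them.

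Most of the family was present in the GV oocyte. Averaged over the 12 biological replicates, 17 members were at 100 CPM or more, 22 at 10 to 100, 10 at 1 to 10 and 7 under 1 CPM. The median member was at 38.9 CPM, against 1.42 for all protein-coding genes. The 5 highest members made up 54.6% of the family's CPM. Those under 1 CPM were Usp18, the protease that removes the ubiquitin-like protein ISG15, the Y-linked Usp9y and the 5 copies related to Usp17; Usp17ld had no count in any library.

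Levels between genes were compared per length, as CPM per kb of annotated exon. In Padi6 het, Usp2, a deubiquitinase known for acting on Mdm2 and cyclin D1, was the highest at 278 ± 23.7 (SD, n = 3), and its range did not overlap that of the next, Usp28, at 132 ± 15.7. Usp46 followed at 111 ± 8.55, with a range that overlaps that of Usp28. Usp38 (91.4 ± 7.18) and Usp39 (91.1 ± 14.8) were not distinct from each other, and Usp19, Usp30, Usp4, Usp7 and Usp1 came next, between 56.7 and 24.4. In Tle6 het the order began with Usp28, at 183 and 238 CPM per kb in its replicates, and Usp2, at 183 and 213, whose ranges overlapped. Usp38, Usp39, Usp46, Usp19, Usp4, Usp3, Usp30 and Usp1 completed its 10 highest, so that Usp3 took the place that Usp7 held in Padi6 het.

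**Figure D2:**
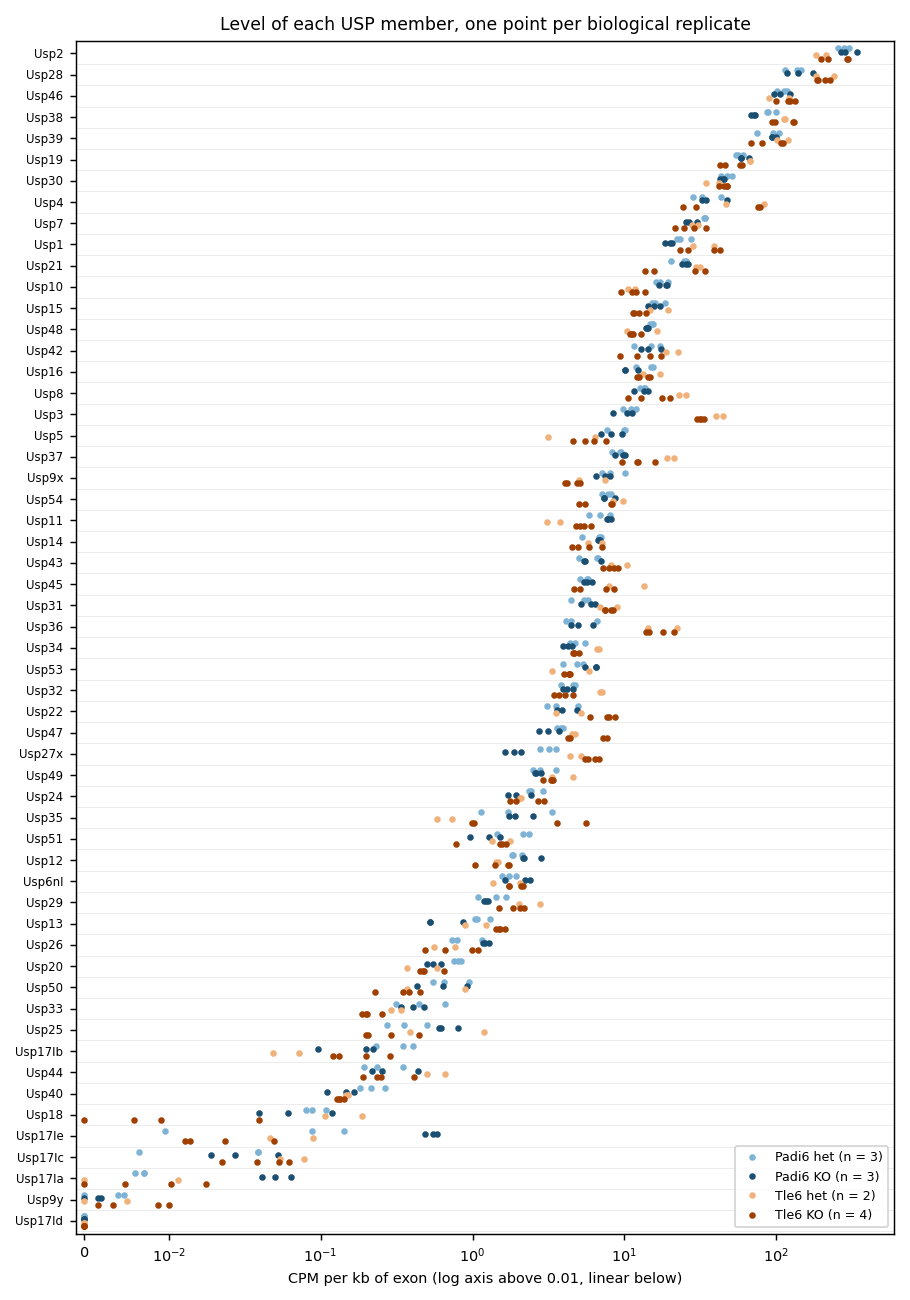
CPM per kb of exon (x axis, logarithmic above 0.01 and linear below) of all 56 USP members in each biological replicate, coloured by group and ordered by the Padi6 het mean. Usp2, Usp28 and Usp46 lie at the top, at 278, 132 and 111 in Padi6 het, and Usp17ld at 0 in all replicates.

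Close relatives were often held at very different levels. Usp46 stood at 111 CPM per kb in Padi6 het and Usp12 at 1.93, although both are activated by the same partner, Wdr48, and are 77.9% identical in coding sequence. Usp28 stood at 132 and Usp25 at 0.377. In the trio of histone deubiquitinases, Usp22 was at 3.87, Usp27x at 3.18 and Usp51 at 1.97. Usp5, which takes free ubiquitin chains apart, stood at 9.23 and its relative Usp13 at 1.14. Usp4 was at 34.6, Usp15 at 16.5 and Usp11 at 6.89, Usp37 at 9.08, Usp29 at 1.39 and Usp26 at 0.89. Usp20 and Usp33, at 0.8 and 0.471, and Usp53 and Usp54, at 4.71 and 7.72, were closer to each other. Usp9x stood at 8.45, and its Y-linked copy Usp9y had 4 counts in all of Padi6 het.

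By role, members tied to p53, Mdm2 and DNA damage ranged from 3.78 CPM per kb (Usp47) to 278 (Usp2) in Padi6 het, with a median of 15.1. The 9 histone and chromatin enzymes were lower, from 0.258 (Usp44, which guards the spindle checkpoint) to 23.5 (Usp21), with a median of 3.87. The 13 endosomal and signalling members had a median of 4.39, with Usp4 highest at 34.6. Among the 3 enzymes of organelle membranes, Usp19, anchored in the endoplasmic reticulum, stood at 56.7, Usp30, of the outer mitochondrial membrane, at 47.1 and Usp35 at 2.06. Usp39, the splicing factor, was the highest of the 4 members with weak or no catalytic activity, and Usp50 the lowest at 0.714. The copies related to Usp17 reached at most 0.33 (Usp17lb). In Tle6 het the same member was highest in 7 of the 11 role groups.

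The summed CPM of the members was 7284, 6732 and 7350 in Padi6 het and 7035, 6807 and 7363 in Padi6 KO, overlapping ranges. In the Tle6 line it was 8226 and 8178 in het and 8205, 7365, 7764 and 7759 in KO, which also overlap. The direction in the Tle6 line depends on the scaling: as a plain share of gene counts, the members made up 0.722 and 0.691% in Tle6 het and 0.771, 0.762, 0.782 and 0.758% in Tle6 KO, higher in every KO replicate. In the Padi6 line the share was 0.742 to 0.773% in het and 0.717 to 0.757% in KO, again overlapping.

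The first comparison asks which members differ in oocytes without PADI6. Of 52 members tested, Usp17le rose and Usp27x fell in Padi6 KO, and 50 did not pass the test (edgeR quasi-likelihood test, Benjamini-Hochberg adjusted p under 0.05 over all genes). These 3.85% of the tested members compare with 2.41% of all 18228 genes tested, 1.69% higher and 0.724% lower. In libraries of pooled oocytes, less of a transcript in every oocyte and its loss from some of them cannot be told apart. The members' median log2 fold change was -0.03, with a middle range from -0.22 to 0.10, beside -0.006 for all genes. The replicates of the groups did not overlap for 14 of 52 members, 5 higher and 9 lower in KO, near the 23.2% of all genes tested. At an unadjusted p under 0.05 there were 13 members, 3 higher and 10 lower, beside 18.6% of all genes.

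Usp27x encodes the X-linked relative of Usp22 that acts on ubiquitinated histone H2B with the ENY2 and ATXN7L3 adaptors. It was at 11.9, 13.6 and 15.2 CPM in Padi6 het and at 7.99, 7.04 and 8.98 in Padi6 KO. Every KO replicate was below every het replicate, and the log2 fold change was -0.77 ± 0.16 (SE, edgeR adjusted p = 0.0421). The call is a narrow one: it was lost without Padi6 het replicate 2 (-0.75) or 3 (-0.69) and without Padi6 KO replicate 1 (-0.76), 2 (-0.68) or 3 (-0.86), while the fold change stayed within -0.86 and -0.68 under all alternatives run. Such losses were general: leaving out a Padi6 replicate cut the 440 calls over all genes to between 61 and 258. Its relative Usp22 did not move beyond its error (0.09 ± 0.20), and Usp51 was at 5.15, 4.72 and 3.17 CPM in het and 3.36, 2.82 and 2.13 in KO (-0.65 ± 0.25, adjusted p = 0.207 in edgeR).

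Usp17le, a tandem copy, was at 0.284, 0.0189 and 0.175 CPM in Padi6 het and at 1.09, 0.966 and 1.17 in Padi6 KO. All KO replicates lay above all het replicates, with 199 counts over the KO group and 27 over the het group. The gene entered this test only because its KO replicates passed the filter on low counts. Its call therefore carries that selection, and with a mean CPM of at least 1 as the filter it was not tested. The log2 fold change was 2.74 ± 0.59 (edgeR adjusted p = 0.0446). It lost its call without Padi6 het replicate 3 (2.81) and without Padi6 KO replicate 1 (2.74), 2 (2.81) or 3 (2.67). Usp17la, too low to be tested, had 25 counts in KO and 3 in het, a ratio of 7.46 with an exact 95% counting interval from 2.28 to 38.6, which covers counting error only. Usp17lb, the other tested copy, was at 0.359, 0.547 and 0.637 CPM in het and 0.346, 0.311 and 0.149 in KO (-0.92 ± 0.44, adjusted p = 0.303 in edgeR). Since the copies share much of their sequence, a count given to one may belong to another.

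Among the members that did not pass, those with the smallest p that were lower in KO were Usp38, Usp13, Usp16 and Usp7. Usp38, a deubiquitinase high in these oocytes, was at 572, 498 and 503 CPM in het and 415, 389 and 409 in KO (-0.38 ± 0.09, edgeR adjusted p = 0.0647). Usp13, which stabilises several substrates and binds free chains weakly, was at 9.91, 7.94 and 8.09 in het and 3.98, 6.59 and 3.98 in KO (-0.83 ± 0.23, edgeR adjusted p = 0.0878). For both, the groups did not overlap. Usp16, a histone H2A deubiquitinase, had -0.39 ± 0.12, and Usp7, which deubiquitinates Mdm2 and Dnmt1, had -0.30 ± 0.09. On the higher side were Usp25 (0.85 ± 0.26), Usp53 (0.39 ± 0.13), Usp26 (0.45 ± 0.22) and Usp12 (0.30 ± 0.16), none past the threshold. DESeq2 called 6 members, namely Usp17le and Usp25 higher and Usp27x, Usp38, Usp13 and Usp20 lower. The share of all genes that DESeq2 called is not given here, so this count does not set the members apart.

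**Figure D3:**
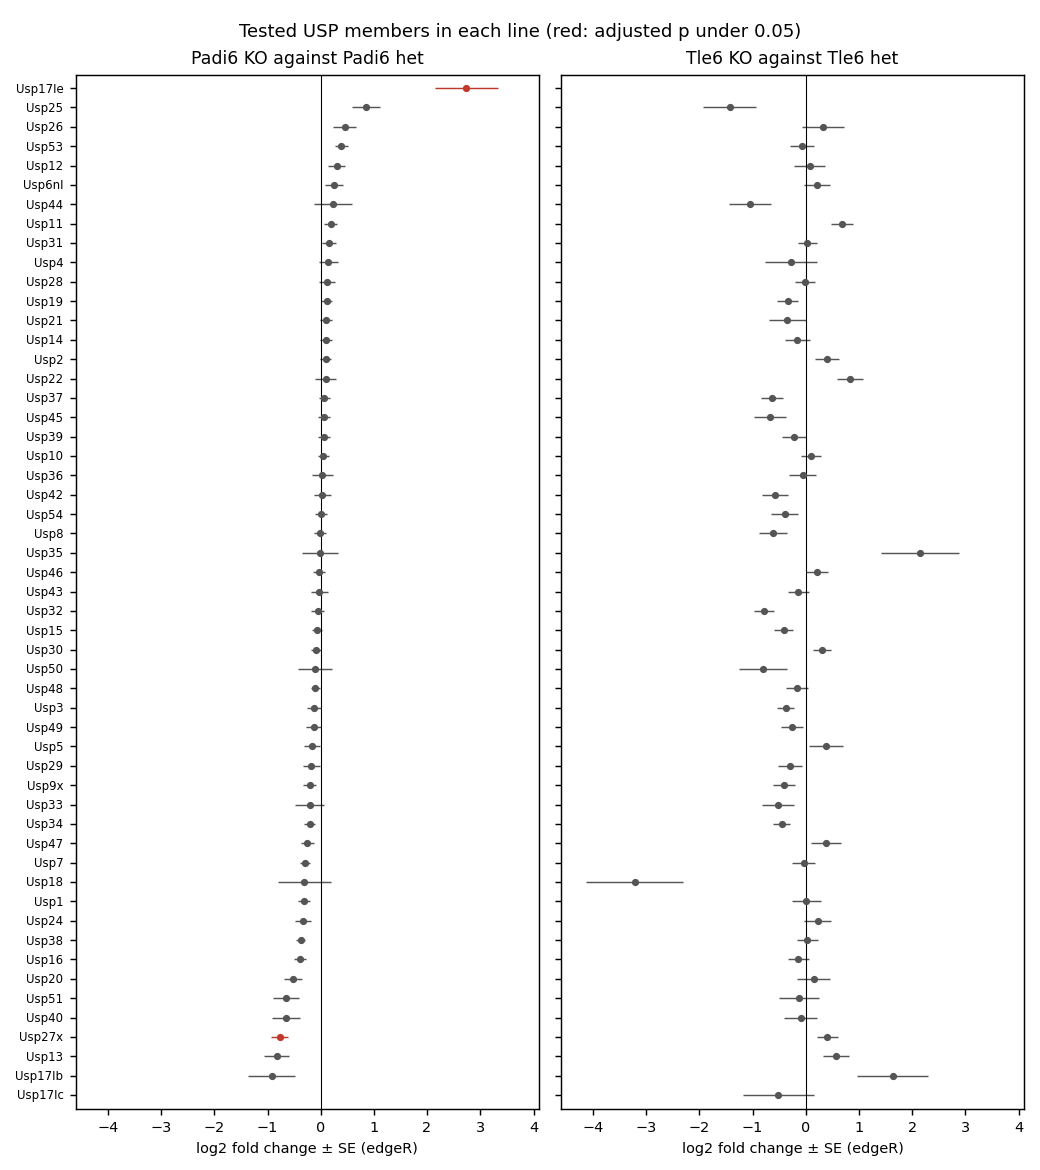
Log2 fold change with its standard error (x axis, edgeR) of the tested USP members, for Padi6 KO against het on the left and Tle6 KO against het on the right, in the order of the Padi6 values; red points have an adjusted p under 0.05. Usp17le (2.74) and Usp27x (-0.77) are red on the left, and no point is red on the right.

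The second comparison asks the same of oocytes without TLE6. Of 52 members tested, none passed the edgeR test, beside 1.62% of all 20276 genes tested, 0.587% higher and 1.04% lower. At an unadjusted p under 0.05 there were 15 members, 5 higher and 10 lower, against 19.0% of all genes. DESeq2 called 3, Usp22 and Usp35 higher and Usp32 lower, a count again without the share of all genes beside it. The replicates did not overlap for 19 of 52 members, 6 higher and 13 lower, against 29.2% of all genes. The members' median log2 fold change was -0.14 and that of all genes 0.062, but under total count scaling the members' median was 0.02, since that scaling moves the median of all genes to 0.22.

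Several members had sizeable differences without passing. Usp32, a membrane-bound enzyme of the endosomal system, was at 55.1 and 53.2 CPM in Tle6 het and at 35.4, 26.4, 31.1 and 28.6 in Tle6 KO. All KO replicates lay below both het replicates (-0.79 ± 0.19, edgeR adjusted p = 0.0759), and without library B of het replicate 2 the value was -0.68. Usp22, the catalytic subunit of the SAGA deubiquitinase module, was at 25.4 and 17.4 in het and 37.6, 42.5, 38.7 and 29.1 in KO (0.83 ± 0.24, edgeR adjusted p = 0.123). Usp11, an X-linked relative of Usp4 tied to DNA repair, was at 17.8 and 14.6 in het and 25.8, 22.7, 24 and 28.4 in KO (0.68 ± 0.21). Both lay above het in every KO replicate. Usp37, a cell cycle deubiquitinase that acts on cyclin A, was at 211 and 234 in het and at 176, 107, 136 and 134 in KO, below both het replicates (-0.64 ± 0.21, edgeR adjusted p = 0.158). Both libraries of het replicate 1, at 187 and 183 CPM, lay above every KO library. In het replicate 2, library B was at 250 and library A at 103, below every KO library. The size of the difference thus depends on which library stands for that replicate. Without library B the log2 fold change was -0.17 (edgeR adjusted p = 0.869).

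Other low members had larger fold changes and larger errors. Usp18 was at 0.519 and 0.297 CPM in Tle6 het and at 0, 0.0163, 0.109 and 0.0254 in KO, with 70 counts against 11 (-3.22 ± 0.91, edgeR adjusted p = 0.114). In het replicate 2 the Usp18 counts were 0 in library A and 29 in library B, so that this replicate's value comes from library B. Usp25 had -1.43 ± 0.50, and -0.14 without library B. Usp17lb was at 0.076 and 0.113 in het and at 0.187, 0.309, 0.205 and 0.445 in KO (1.63 ± 0.66), 17 counts against 77. Usp18 passed the filter on low counts in this line only through its het replicates, and Usp17lb only through its KO replicates. The values of both therefore carry that selection.

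Within Tle6 KO some members differed widely between replicates 1 to 4. Usp35, a mitochondrial and membrane-associated member, was at 5.44, 19.1, 29.4 and 5.27 CPM, above both het values (3.85 and 3.07), with a log2 fold change of 2.15 ± 0.73. Usp4, which acts in TGF-beta and Wnt signalling, was at 673, 210, 256 and 650 against 720 and 402 in het. Usp21, a histone H2A deubiquitinase, was at 162, 65.5, 74.4 and 138 against 140 and 150. In all of them replicates 1 and 4 were close to each other and apart from replicates 2 and 3. The libraries split in the same way. Reads without a gene were 6.7 and 7.29% in replicates 2 and 3, against 5.65 to 5.84% in the libraries of replicates 1 and 4. Reads with several alignments were 14.51% in both, against 12.09 to 13.5%. A link to the values of these members was not tested. The KO values of Usp4 overlap those of het, and for Usp21 the het values lie inside the KO range.

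Whether the knockout effects differ between the lines was tested as the difference of the log2 fold changes, Tle6 minus Padi6, over all 12 biological replicates. The lines differ in both the targeted gene and the strain, and the parts of these in such a difference cannot be told apart. Of 52 members tested, 4 passed: Usp27x and Usp13 with a higher and Usp25 and Usp17le with a lower effect in the Tle6 line. This is 7.69% of the tested members, beside 4.32% of all 21392 genes tested, 1.31% with a higher and 3.01% with a lower effect in the Tle6 line. At an unadjusted p under 0.05 there were 14 members, beside 20.7% of all genes. No member passed without Padi6 het replicate 3, 1 to 3 did without another single replicate, and 6 did without Tle6 KO replicate 1. Calls over all genes moved as well, from 924 to 406 without Padi6 het replicate 3 and to 1465 without Tle6 KO replicate 1. The test uses the samples of both earlier comparisons again. The members' median difference was -0.17, beside 0.021 for all genes, and turned to 0.06 under total count scaling, which moves the median of all genes to 0.25.

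Usp27x was at 22.2 and 18.8 CPM in Tle6 het and at 24.8, 27.3, 29.1 and 23.6 in Tle6 KO, all above het, opposite to the Padi6 line. The difference was 1.12 ± 0.25 (edgeR adjusted p = 0.0239). It did not pass without library A (0.89) or library B (1.43) of Tle6 het replicate 2, without that replicate (1.00), without Padi6 het replicate 2 (1.12) or 3 (1.03), or without Padi6 KO replicate 2 (1.03), and its direction held throughout. Usp13 was at 6.74 and 9.27 in Tle6 het and 11.5, 11.4, 12.5 and 10.8 in Tle6 KO, again above het in each KO replicate while the Padi6 KO replicates were below theirs. Its difference was 1.36 ± 0.33 (edgeR adjusted p = 0.0368), and 1.06 to 1.42 in the alternatives where it did not pass, which include leaving out each Padi6 het replicate, Padi6 KO replicate 1 or 3, Tle6 het replicate 1, Tle6 KO replicate 2 or 3, and library A of Tle6 het replicate 2.

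Usp25, a relative of Usp28 known from immune and Wnt signalling, rested on a single library. It was at 2.61, 1.43 and 1.83 CPM in Padi6 het, 3.13, 4.19 and 3.23 in Padi6 KO, 2.01 and 6.16 in Tle6 het and 2.31, 1.03, 1.07 and 1.51 in Tle6 KO. The difference was -2.32 ± 0.60 (edgeR adjusted p = 0.0443), but -0.99 without library B of Tle6 het replicate 2, with no call. It also lost its call, at -2.58 to -2.14, without any one of the Padi6 replicates or of Tle6 KO replicates 2, 3 and 4, and without Tle6 het replicate 2 (-1.30). Usp17le was at 0.177 and 0.0921 CPM in Tle6 het and at 0.0467, 0.0977, 0.0273 and 0.0254 in Tle6 KO, 23 counts against 12. In the Tle6 line by itself it was too low to be tested. Its difference was -4.18 ± 1.00 (edgeR adjusted p = 0.0335), and between -4.25 and -3.66 where leaving out Padi6 het replicate 3, a Padi6 KO replicate, Tle6 het replicate 1 or Tle6 KO replicate 3 or 4 ended the call.

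**Figure D4:**
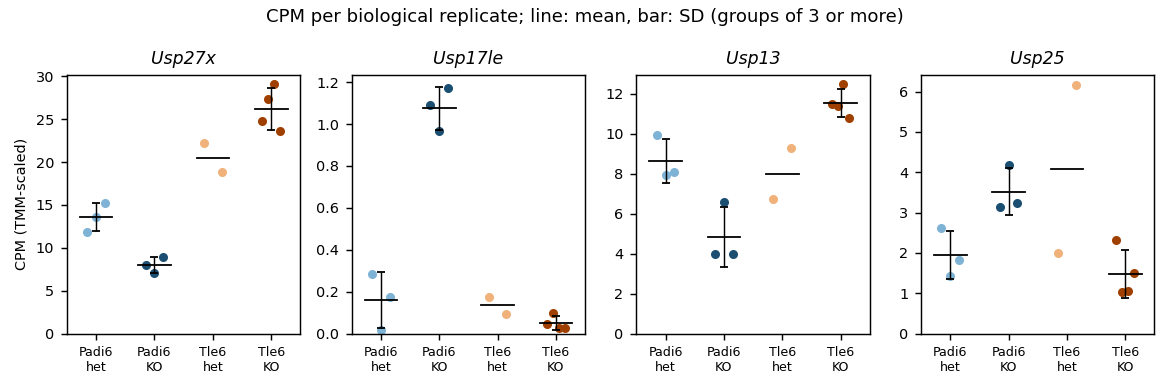
CPM (y axis, from 0) of Usp27x, Usp17le, Usp13 and Usp25 in each biological replicate of the 4 groups, with the mean as a line and the SD as a bar for groups of 3 or more. Usp27x and Usp13 are lower in Padi6 KO than in Padi6 het and higher in Tle6 KO than in Tle6 het, and the upper Tle6 het point of Usp25 at 6.16 CPM is replicate 2.

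The fourth comparison sets the controls of the lines side by side. Between Tle6 het and Padi6 het, 17 of 52 members passed, 12 higher and 5 lower in Tle6 het, or 32.7% of members beside 28.5% of all 21392 genes tested, of which 15.9% were higher and 12.7% lower. At an unadjusted p under 0.05 there were 24 members, beside 40.0% of all genes. Strain, targeted gene and any difference in how the libraries of the lines were made or sequenced cannot be told apart in this comparison. Spike-in counts were 7116, 7053 and 40 in the Padi6 het libraries and 45, 27, 30 and 22 in the Tle6 het libraries. The split depends on the scaling: with plain total counts 3 members were higher and 12 lower, 8 of the 17 still being called, and over all genes 31.4% of 6548 calls were higher in place of 55.5% of 6107, as that scaling moves the median of all genes from -0.03 to -0.34. The members' median log2 difference was 0.14 and became -0.17 with total counts. Without Padi6 het replicate 1, 10 members were called, and 4726 of all genes. Without library B of Tle6 het replicate 2, 17.5% of all genes and 5 members were called, Usp3, Usp36 and Usp45 higher and Usp11 and Usp17lb lower. Without library A of that replicate, 22 members were called, all 17 among them, and 6988 of all genes. Beside these shares of all genes, the small role groups below are given as counts and set no group apart. The replicates did not overlap for 33 of 52 members, beside 53.9% of all genes.

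Among histone and chromatin enzymes, 3 of 9 were higher in Tle6 het and none was lower, beside 15.9% higher and 12.7% lower over all genes, and 2 of 9 with total counts or without library B. Usp3, which removes ubiquitin from histones H2A and H2B, was at 81.6, 66.7 and 75.3 CPM in Padi6 het and at 274 and 307 in Tle6 het (1.96 ± 0.15, edgeR adjusted p = 1.31e-06). The knockout replicates stood nearer to the hets of their own line than to those of the other, at 77.3, 71.4 and 57.3 in Padi6 KO and at 228, 214, 206 and 220 in Tle6 KO. Every Tle6 KO replicate lay below both Tle6 het replicates, without passing (-0.38 ± 0.16, edgeR adjusted p = 0.246). Usp36, a nucleolar enzyme, was at 31.7, 50.7 and 34.4 in Padi6 het and at 171 and 110 in Tle6 het (1.85 ± 0.25, edgeR adjusted p = 1.79e-04). Its KO replicates stood at 38.1, 34.3 and 47.6 in the Padi6 line and at 164, 112, 107 and 139 in the Tle6 line. Usp27x was the third of these (0.59 ± 0.18), and passed under neither total counts nor without library B.

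In the Usp37 subfamily, 2 of 3 were higher: Usp37 (92.2, 104 and 106 CPM in Padi6 het, 211 and 234 in Tle6 het, 1.15 ± 0.18, edgeR adjusted p = 4.84e-04) and Usp29 (0.79 ± 0.21), an imprinted gene of chromosome 7 whose exons overlap Zim3 on the other strand over 14.3% of their length. Without library B neither passed, at 0.63 for Usp37 and 0.36 for Usp29, and with total counts Usp37 alone did. Among endosomal and signalling members, 4 of 12 tested were higher, namely Usp8 (0.87 ± 0.22), which frees receptors on endosomes, Usp32 (0.68 ± 0.17), Usp31 (0.60 ± 0.16) and Usp34 (0.45 ± 0.14), and Usp20 was lower (-0.75 ± 0.26). None of these 4 higher members passed with total counts or without library B, where they were at 0.61, 0.53, 0.39 and 0.38, nor did Usp20 without library B (-0.41). Of 9 members tied to p53, Mdm2 and DNA damage, Usp28 (0.67 ± 0.19) and Usp43 (0.61 ± 0.19) were higher and Usp11 and Usp10 lower. Usp11 was at 37.8, 27.6 and 32.5 CPM in Padi6 het and 17.8 and 14.6 in Tle6 het (-1.01 ± 0.18, edgeR adjusted p = 0.00129). Usp10, which works with the G3BP proteins, had -0.66 ± 0.16. Of these 4, Usp11 alone passed without library B, where Usp28 was at 0.35, Usp43 at 0.47 and Usp10 at -0.37, and with total counts Usp28 and Usp43 did not pass. Usp45 was higher (0.95 ± 0.26), and Usp5 (-0.96 ± 0.29) and Usp17lb (-2.42 ± 0.61, 0.0604 against 0.33 CPM per kb) were lower. Without library B, Usp5 did not pass (-0.72), and with total counts Usp45 did not. No member of the Wdr48-dependent enzymes, the organelle membrane enzymes or those with weak or no catalytic activity passed; with total counts, Usp30 and Usp35 of the organelle membranes were called lower.

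**Figure D5:**
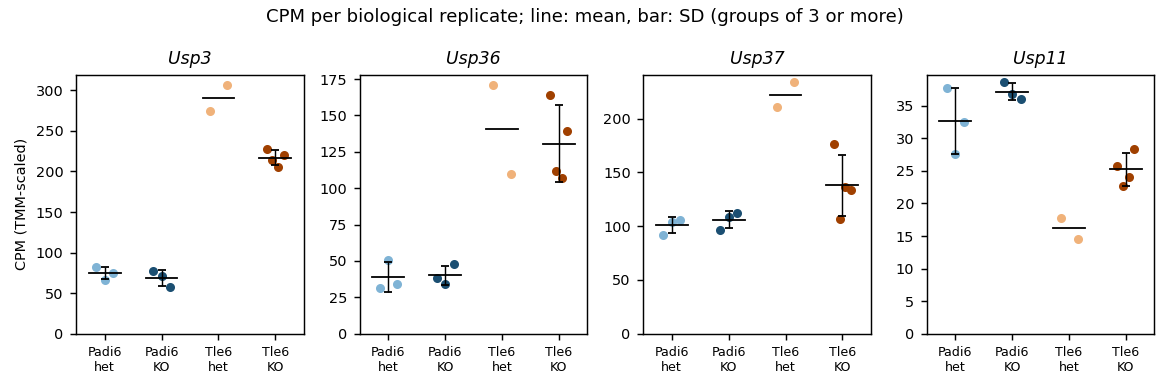
CPM (y axis, from 0) of Usp3, Usp36, Usp37 and Usp11 in each biological replicate of the 4 groups, with the mean as a line and the SD as a bar for groups of 3 or more. Both Tle6 het replicates lie above all Padi6 het replicates for Usp3, Usp36 and Usp37, and below them for Usp11.

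The deubiquitinases of other classes and the partners of the USP enzymes were followed as listed genes. Of 33 such deubiquitinases tested in the Padi6 line, Stambpl1 alone passed, beside 2.41% of all genes tested. This JAMM metalloprotease of endosomes was at 10.8, 8.13 and 11.4 CPM in Padi6 het and 32.4, 37.7 and 35.8 in Padi6 KO (1.80 ± 0.15, edgeR adjusted p = 9.36e-04). In the Tle6 line Stambpl1 was at 6.31 and 2.68 in het and 0.607, 1.55, 0.205 and 0.381 in KO, and the difference between the lines was -4.53 ± 0.71. Of 32 tested in the Tle6 line, Otulin alone passed, beside 1.62% of all genes tested. Otulin, which cuts linear ubiquitin chains, was at 34.3 and 31.0 CPM in het and 67.3, 77.4, 69.9 and 60.1 in KO (1.12 ± 0.19, edgeR adjusted p = 0.0297). All KO replicates lay above both het replicates, but Otulin lost its call without any one biological replicate of the line or either library of het replicate 2, at 1.00 to 1.22.

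The 18 partners of USP enzymes, among them Wdr48 and the SAGA adaptors, included no called gene in either knockout. Between the het groups, 5 of these partners were higher and 2 lower in Tle6 het, beside 15.9% and 12.7% of all genes. With total counts the partners gave 1 higher and 5 lower, and without library B 2 higher and 1 lower. The deubiquitinases of other classes gave 11 higher and 5 lower of 33 tested between the het groups, or 48.5%, beside 28.5% of all genes. This split too depends on the processing, with 4 higher and 6 lower with total counts (30.3%, beside 30.6% of all genes) and 4 higher and 3 lower without library B (21.2%, beside 17.5%). Among those called were Mindy3 (1.39 ± 0.16) and Bap1, an H2A deubiquitinase (-1.08 ± 0.17). Both passed under these settings as well. For Mindy3 the effects also differed between the lines. The difference was -0.91 ± 0.21, and -0.52 and not called without library B of Tle6 het replicate 2. It was also not called, at -0.95 to -0.80, without Padi6 het replicate 2 or 3, Padi6 KO replicate 2 or 3, Tle6 het replicate 2, or Tle6 KO replicate 2 or 4. The ISG15 pathway of Usp18 was not measurable in either line, since none of its 4 genes passed the filter on low counts there.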

How the data were processed

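Polyadenylated RNA of GV oocytes was sequenced in 15 libraries. The authors deposited whole-number counts of reads per gene for each library, not normalised. Per the submitters' processing notes, bcl2fastq 2.20.0.422, cutadapt 2.8, STAR 2.7.8a and HTSeq 2.0.2 were used with mm39. The sources used here do not give the strand setting. In the deposited counts, reads without a gene were 5.39 to 7.29% of a library's table, ambiguous reads 3.85 to 4.2% and reads with several alignments 12.09 to 14.51%. These lines and 92 spike-ins were left out. Symbols came from GENCODE M21 (GRCm38): 52147 identifiers matched and 1553 did not.

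Technical libraries were summed, giving 12 biological replicates. After filterByExpr, edgeR 4.0.16 in R 4.3.3 gave the two-sided tests (TMM scaling, robust glmQLFit and glmQLFTest, threshold 0.05), each line by itself, with Benjamini-Hochberg adjustment over all genes. The comparisons between lines used 1 fit over all replicates. CPM were scaled by TMM over all 12 replicates, and those of single libraries are plain. Fold changes come with a standard error worked out from the test, as the absolute log2 fold change over the square root of the F statistic. The labels do not say whether replicates came from separate animals, so a p-value reflects only how far these samples spread, which may be technical. The code was tested on simulated data.

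The members, roles and lists were chosen with earlier results of these data known. Named were the called members, the 5 with the smallest p per direction, the 10 highest per length in each het group and sequence relatives; of each list, up to 3 called genes. One of the lists is not reported here. Alternatives used other scalings, filters, DESeq2 1.42.0, limma-voom (limma 3.58.1), a shared spread, a replicate block and left-out libraries.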

Additional observations from a re-analysis of the deposited data

Results flagged for a closer look

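The effect of the knockout differed between the lines, by a test of the difference itself, for 4 members: Usp27x (1.12, Tle6 minus Padi6, log2), Usp13 (1.36), Usp25 (-2.32) and Usp17le (-4.18). For Usp25 the value was -0.99, and not called, without library B of Tle6 het replicate 2. None of these calls was stable. Over the alternatives run, the call was lost in 7 for Usp27x, 9 for Usp13, 14 for Usp25 and 8 for Usp17le, with the direction kept. Targeted gene and strain cannot be told apart here.

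In the 4 replicates of Tle6 KO, 1 replicate stood apart from the others for 3 of 49 members at 1 CPM or more. The gap to the nearest replicate was 0.864 of the whole range for Usp20 (replicate 4 highest, 5.84 CPM against 4.06 to 4.30), 0.849 for Usp34 (replicate 3 highest, 92.7 against 84.5 to 85.8) and 0.854 for Usp51 (replicate 3 lowest, 1.72 against 3.36 to 3.65), each over Dixon's critical value for 4 samples. Chance flags about 1 in 20 such groups.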

How the results depend on the processing

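In Padi6 KO against het, the 2 called members became 5 with no filter on low counts, 1 with a mean CPM of at least 1, 6 with DESeq2, 0 with a spread shared by both lines and 0 to 2 with one replicate left out. With a replicate left out, the 440 calls over all genes became 61 to 258. In Tle6 KO against het, the count of 0 became 3 with no filter, 3 with DESeq2 and 6 with the shared spread, and was 0 whichever replicate, or library of het replicate 2, was left out. The counts with another filter, DESeq2 or the shared spread stand without the share of all genes, so they do not set the members apart. The 4 members that differed between the lines became 7 with DESeq2, 1 with library A alone and 0 to 6 with a replicate or library left out, and the 17 that differed between the het groups 3 with library A alone and 5 to 22 with one left out. In these left-out fits the calls over all genes went from 924 to between 382 and 1465 for the difference. For the het groups they went from 6107 to between 3724 and 6988. The members' median log2 fold change was -0.08 to 0.01 (Padi6), -0.18 to -0.07 (Tle6), -0.25 to 0.00 (difference) and 0.03 to 0.23 (het groups) with one left out. Total counts moved it to 0.02 (Tle6), 0.06 (difference) and -0.17 (het groups), and library A alone to 0.01 (difference) and 0.00 (het groups). Over the alternatives, named members lost a call 11 times in the Padi6, 38 in the difference and 69 in the het comparison, and gained one 8 times in the Padi6, 12 in the Tle6 and 10 in the difference comparison, always in the same direction. In the Tle6 line no member had a call to lose, and in the het comparison every named member was called, so none could gain one. The total-count and library B values of the listed deubiquitinases and partners between the het groups were added after the data were seen.

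The labels do not say whether replicate numbers pair samples across genotypes, and the main tests did not treat them as pairs. Correlations of deviations between samples of the same number were low (0.11, 0.06 and 0.07 for Padi6, 0.05 and 0.10 for Tle6). With the replicate block, Padi6 KO against het gave 4 called members (Usp17le, Usp27x, Usp16 and Usp38) and a median of -0.03, and Tle6 KO against het 0 and -0.13. Every Padi6 het replicate correlated best with the KO replicate of its own number. So did Tle6 het replicate 2 but not replicate 1, a hint from the data only. With the longest transcript as length, 8 or 9 of the 10 highest members of a group were the same. The cause of these changes was not tested.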
